A study of Mus musculus with 10 samples.

Results

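The genes for the proteins of the mitochondrial ribosome were examined in mouse liver. They were taken as every gene whose single symbol in the platform annotation starts with Mrpl (large subunit) or Mrps (small subunit) followed by a digit, which gave 76 of the 18193 genes with a probe set of their own, 47 of the large and 29 of the small subunit. These genes had 156 of the 45101 probe sets of the array. RNA came from the livers of 10 mice that the labels call ApoE-/-, 1 mouse per Affymetrix array: 5 mice carried an adenovirus for dominant negative cJun, a form that blocks the normal protein (dn-cJun, replicates 16 to 20), and 5 carried an adenovirus for the fluorescent protein GFP (control, replicates 11 to 15). By the labels, both groups thus shared a viral infection and the ApoE-/- genotype, and the Apoe signal given below goes against the genotype. cJun pairs with related proteins to form the transcription factor AP-1, and the study's title names lipid homeostasis. The labels leave out the promoter of the viral cargo, the dose and time of infection, and the age and sex of the animals.

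Mitochondria make a small set of membrane proteins of the respiratory chain and the ATP synthase on ribosomes of their own. The RNA of these ribosomes is encoded in mitochondrial DNA, whereas all of their proteins are encoded in the nucleus, made in the cytosol and imported. Some of these proteins descend from those of bacterial ribosomes, and others exist in mitochondria only. The symbols do not follow the structure in every case: Mrps18a and Mrps30 are placed in the large subunit in mammalian structures, and Mrps36 is now known as a component of the 2-oxoglutarate dehydrogenase complex. Liver is rich in mitochondria, and its fatty acid oxidation and urea cycle depend on them.

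Facts of the arrays that touch the results come first. Apoe, the gene the labels give as lost, was higher on the arrays labelled dn-cJun, at 15.31 to 15.82 against 9.42 to 10.94 on the control arrays, in log2 units. The log2 difference was 5.41 (SE 0.22, limma adjusted p = 2.57e-08), which goes against a genotype shared by both groups, so these arrays are called labelled dn-cJun throughout. Where the Apoe probes lie relative to the deletion was not examined. If the genotypes differ, genotype and virus cannot be told apart in the differences given below. Jun gave 10.37 ± 0.37 on the arrays labelled dn-cJun and 10.43 ± 0.24 on the control arrays (SD, n = 5 each; limma adjusted p = 0.890), and whether its probes read the viral cargo was not examined, so that it does not check the virus label. Xist, which silences an X chromosome in female cells, reached 13.71 in control 14 and 13.63 in control 15. The other 8 arrays gave 5.90 to 6.72. Eif2s3y, a Y-linked gene, read 5.22 and 4.08 in these 2 controls and 10.58 to 11.13 on the others. The Y-linked Kdm5d gave 4.82 and 5.21 against 7.87 to 8.38, and Uty 5.82 and 4.95 against 8.37 to 9.08. By these signals, controls 14 and 15 were female and the other 8 mice male, so sex was not balanced between the groups. Fits that leave out these 2 controls, or add a term for them, are given below. The hepatocyte gene Alb was between 15.66 and 15.85 on every array. Of 11 macrophage markers 8 had negative differences and 2 passed the test, Lyz2 at -0.70 (SE 0.13) and Cd5l at -0.57 (SE 0.11). The median of this list, centred over the arrays, was -0.26 to 0.03 on the arrays labelled dn-cJun and -0.26 to 0.39 on the control arrays. Its part in the results below was not tested. In bulk RNA, fewer cells of a type and less RNA per cell cannot be told apart.

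The array signals were compared as log2(intensity + 16) after quantile normalization, with the brightest probe set standing for each gene. Differences are arrays labelled dn-cJun minus control on that scale, where the changes of dim genes come out too small. All 76 genes were above the filter on dim signals. The p-values come from limma and are adjusted over all 12736 genes tested, with a threshold of 0.05.

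Of the genes for mitochondrial ribosomal proteins, 1 passed the test, Mrpl52, which was lower, and none was called as higher; 13 of the 76 had an unadjusted p under 0.05. Over all genes tested, 0.777% passed (0.345% higher and 0.432% lower) and 14.9% had an unadjusted p under 0.05, against 17.1% of these 76 genes. Log2 differences were positive in 46 and negative in 30 of them. Their median was 0.03 (quartiles -0.09 and 0.12), beside 0.0015 over all genes tested (quartiles -0.14 and 0.14). With equal array medians in place of quantile normalization, 37 of the 76 were positive and the median was -0.002. The median over all genes tested in that fit was -0.033. For 74 of the 76 the 95% interval of the difference lay within 0.5 log2 units of 0, which held for 54.4% of all genes tested. The exceptions were Mrpl52 and Mrps27, whose interval reached 0.52. The median standard error was 0.08 among these genes and 0.14 over all genes tested.

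**Figure D1:**
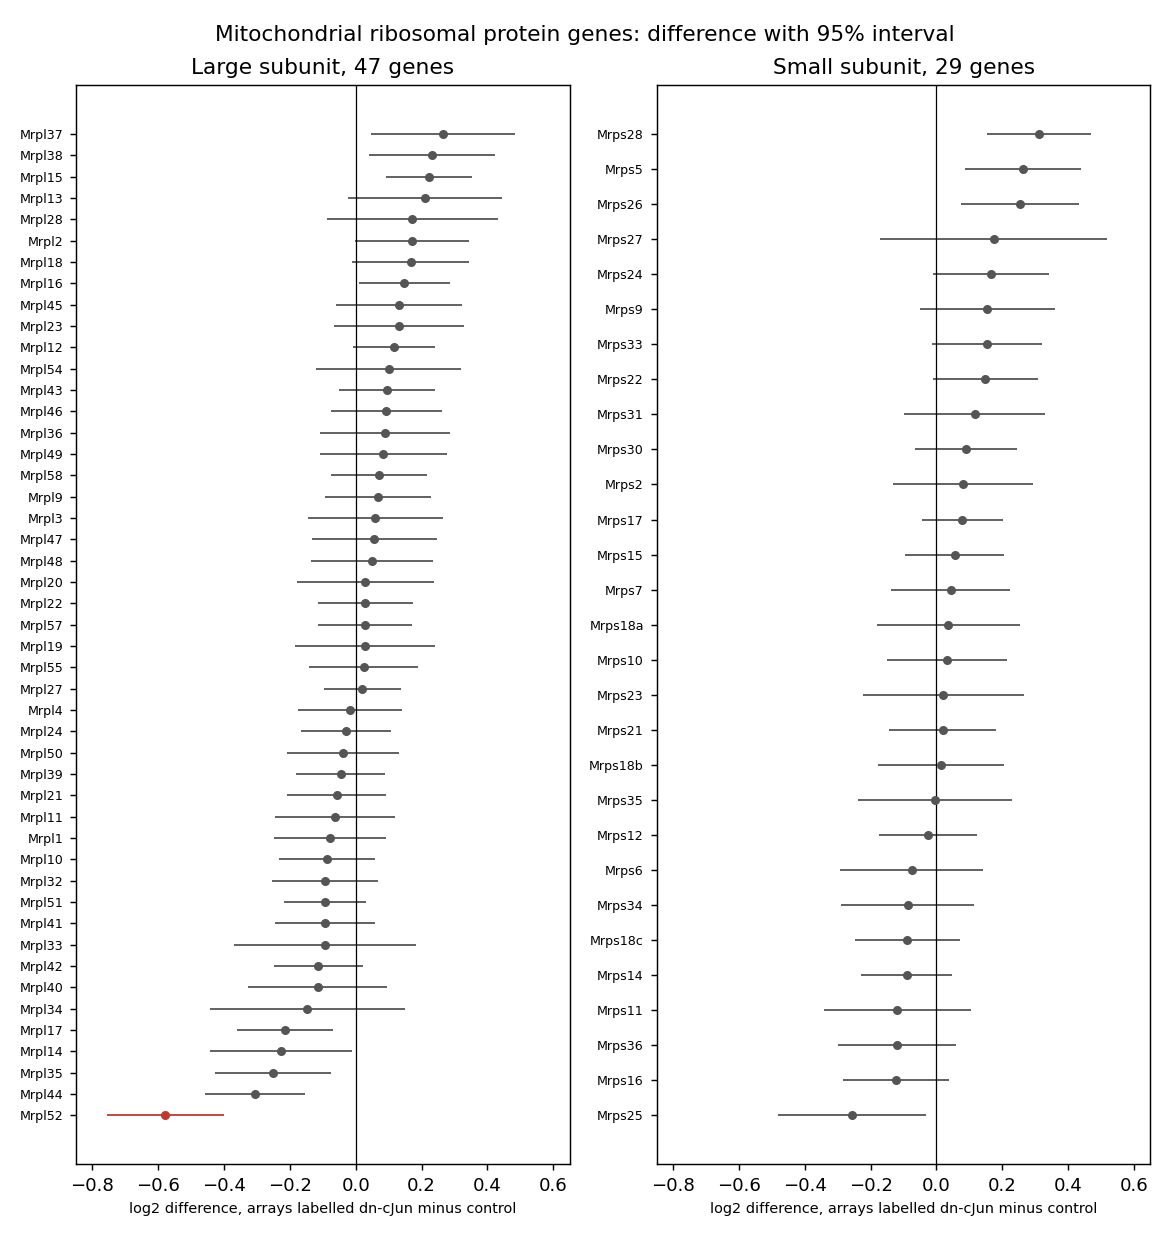
Log2 difference (x axis, arrays labelled dn-cJun minus control) of each of the 76 genes (rows), with its 95% interval from limma, for the large subunit (left) and the small subunit (right). Mrpl52, in red, is the gene with an adjusted p under 0.05, and the others lie between -0.31 and 0.31.

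Mrpl52 encodes a protein of the large subunit that has no bacterial counterpart. Its brightest probe set, 1460701_a_at, read 11.09, 11.18, 11.26, 10.89 and 10.90 on the arrays labelled dn-cJun 16 to 20, against 11.62, 11.59, 11.70, 11.69 and 11.62 on controls 11 to 15. Every array labelled dn-cJun was below every control array, and the controls lay close together. The log2 difference was -0.58 with a standard error of 0.08, a signal 1.49-fold lower (limma adjusted p = 0.0103). The gene passed in each of the 10 fits that dropped a single array, and when controls 14 and 15 were dropped together it was at -0.57 (limma adjusted p = 0.0375). It did not pass in eBayes without an intensity trend (limma adjusted p = 0.0702).

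The other 2 probe sets of Mrpl52 above the filter did not show this difference. The platform annotation lists the same source sequence for 1460701_a_at, 1415761_at and 1415762_x_at. Probe set 1415761_at read 11.22, 11.37, 11.28, 11.16 and 11.03 on the arrays labelled dn-cJun, against 11.06, 11.11, 11.17, 11.11 and 11.12 on the control arrays, a difference of 0.10 (SE 0.08). Probe set 1415762_x_at, a type whose name marks probes that can bind other transcripts, read 11.08, 11.23, 11.18, 11.02 and 11.11 on the arrays labelled dn-cJun, against 11.06, 10.83, 11.24, 11.23 and 11.20 on the control arrays, a difference of 0.01 (SE 0.09). In both, the groups overlapped. The fourth, 1455366_at, was below the filter, with a difference of -0.33 (SE 0.39) and a 95% interval from -1.18 to 0.51, which holds both 0 and the value of 1460701_a_at.

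The gap between 1460701_a_at and 1415761_at within an array was -0.27 to -0.02 on the arrays labelled dn-cJun and 0.48 to 0.58 on the control arrays, a difference of -0.68. The gap between 1460701_a_at and 1415762_x_at differed by -0.59 in the same way. The gap between 1415761_at and 1415762_x_at differed by 0.08. The pairs were chosen after the values had been seen, so these gaps are a description with no test. The mean of the probe sets of a gene, those below the filter included, was also used as the unit. Mrpl52 was then at -0.20 and did not pass (limma adjusted p = 0.380). The fall was measured by 1 of the 3 probe sets above the filter, and which stretch of the transcript each one reads was not examined.

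**Figure D2:**
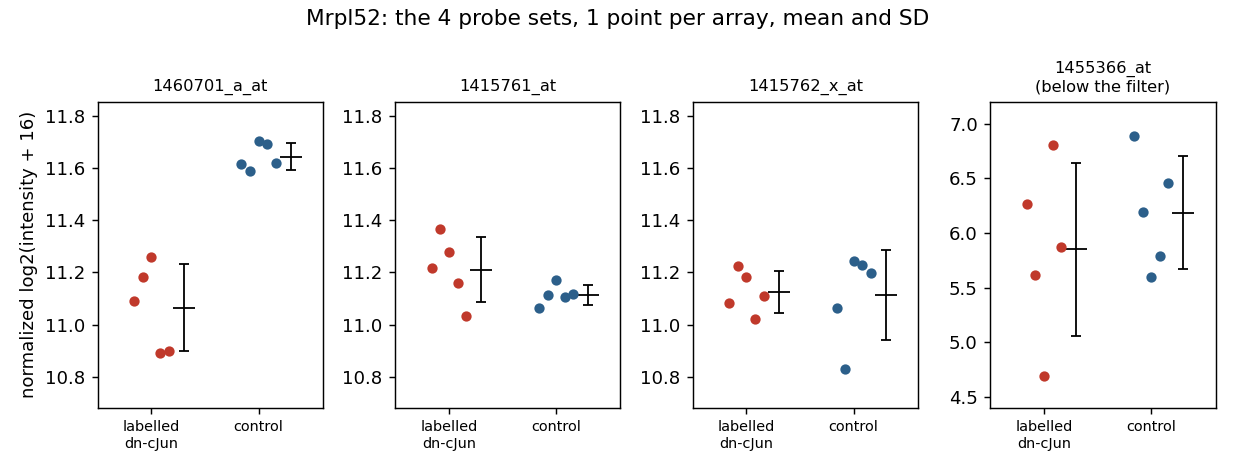
Normalized log2 signal (y axis, with its own range for 1455366_at) of the 4 Mrpl52 probe sets, 1 point per array, arrays labelled dn-cJun left and control right, with mean and SD beside the points. In 1460701_a_at all 5 arrays labelled dn-cJun, at 10.89 to 11.26, lie below the 5 controls, at 11.59 to 11.70, and in the other panels the groups overlap.

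Mrpl52 lies on chromosome 14 in the RefSeq mouse annotation, between Slc7a7 and Mmp14 among the genes tested. The nearest 5 tested genes on each side had log2 differences between -0.14 and 0.16, and none of these 10 passed. Among them was Oxa1l, the insertase that places mitochondrially made proteins in the inner membrane, at -0.09 (SE 0.12). Mmp14, a membrane-bound matrix metalloproteinase, was at -0.01 (SE 0.09).

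The RefSeq promoter windows (mouse build GRCm38.p6) of Mrpl52, the gene that passed, and of Mrpl44, the gene with the next smallest p, follow. They set base composition and motif matches beside the values. Each is the 250 bases before the gene's start, 5′ to 3′, from the plus strand, chr14:54426659-54426908 and chr1:79775768-79776017, with matches to the motifs below in capitals.
Mrpl52: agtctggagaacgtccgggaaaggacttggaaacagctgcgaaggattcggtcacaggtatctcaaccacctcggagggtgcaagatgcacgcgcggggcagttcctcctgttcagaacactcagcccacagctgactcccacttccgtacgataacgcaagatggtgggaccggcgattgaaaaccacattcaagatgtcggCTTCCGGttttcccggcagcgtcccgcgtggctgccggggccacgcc
Mrpl44: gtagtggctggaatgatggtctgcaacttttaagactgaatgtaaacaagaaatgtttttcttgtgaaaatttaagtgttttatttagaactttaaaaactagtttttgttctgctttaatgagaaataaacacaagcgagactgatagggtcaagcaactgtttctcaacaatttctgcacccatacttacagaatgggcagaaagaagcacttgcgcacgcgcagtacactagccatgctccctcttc
The window of Mrpl52 is 59.6% G or C, and that of Mrpl44 is 38.0%. Mrpl52 holds 1 match, to the ETS motif CCGGAAG read on the minus strand, which begins 47 bases before the start. Mrpl44 holds no match to the 4 motifs in the form searched. For NRF1 only an exact palindromic core was searched, and the Mrpl44 window holds a stretch that departs from it in 1 letter. The search therefore does not show that this window lacks other forms of the NRF1 motif.

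Windows were found for 67 of the 76 genes, 73 windows in all, and both strands were searched. The AP-1 motif TGANTCA, bound by factors that include cJun, was in 3 of the 73 windows (4.11%), those of Mrpl33, Mrps25 and Mrps5, and in 6.75% of all 32851 windows in the table. The log2 differences of these genes were -0.09, -0.26 and 0.26, and none passed. The related motif TGACGTCA was in 2.74% of these genes' windows (Mrpl16 and Mrpl49) and in 1.55% of all windows. The ETS motif CCGGAAG was in 23.3% of these genes' windows and in 6.91% of all windows. The palindromic core of the NRF1 motif, 10 letters long, was in 4.11% (Mrpl9, Mrpl32 and Mrpl39) and 0.782%. Only this exact core was searched, so both NRF1 shares leave out other forms of the motif. The ETS and NRF1 motifs are known from promoters of many nuclear genes for mitochondrial proteins. The median share of G or C was 58.4% in these windows and 52.4% in all windows, and its part in the motif shares was not tested. A match describes letters in a window and not a bound site.

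In 7 of the 76 genes (9.21%) the 2 groups of arrays did not overlap, where 4.22% of all genes tested did not overlap. The arrays labelled dn-cJun were above in 4 (2.1% of all genes) and below in 3 (2.13% of all genes). Besides Mrpl52, these were Mrpl44 and Mrpl17, which were below, and Mrpl15, Mrps28, Mrps5 and Mrps26, which were above. None of these other 6 passed the test over all genes.

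Mrpl44, a large subunit protein with a fold related to RNase III whose human counterpart is mutated in a form of infantile cardiomyopathy, read 10.40, 10.43, 10.55, 10.61 and 10.54 on the arrays labelled dn-cJun 16 to 20, against 10.78, 10.90, 10.76, 10.85 and 10.78 on controls 11 to 15. The control arrays were the higher ones, with a gap to the arrays labelled dn-cJun. The log2 difference was -0.31 (SE 0.07, limma adjusted p = 0.0618), and it passed with array weights (limma adjusted p = 0.0481). Its further probe sets gave -0.16, 0.03 and 0.08, and with the mean of probe sets the gene was at -0.09.

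Mrps28, the small subunit protein related to bacterial S1, read 11.95, 11.86, 11.85, 11.78 and 11.95 on the arrays labelled dn-cJun, against 11.40, 11.49, 11.60, 11.67 and 11.67 on the control arrays. The arrays labelled dn-cJun were the higher ones, and controls 14 and 15 were the nearest to them together with control 13. The log2 difference was 0.31 (SE 0.07, limma adjusted p = 0.0695). It passed with a term for controls 14 and 15 (0.38, limma adjusted p = 0.0347) but not with these 2 arrays left out (0.38, limma adjusted p = 0.0640). Mrps28 has 1 probe set.

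Mrpl15, a counterpart of a bacterial large subunit protein, read 12.62, 12.60, 12.72, 12.79 and 12.75 on the arrays labelled dn-cJun, against 12.43, 12.53, 12.53, 12.40 and 12.48 on the control arrays. The difference was 0.22 (SE 0.06, limma adjusted p = 0.116), on 1434971_x_at, a probe set of the type that can bind other transcripts. Without the probe sets ending in _x_at or _s_at the gene turned to -0.13. Its 7 probe sets above the filter ranged from -0.25 to 0.96, the widest spread of the genes examined here. The highest was the dim 1451623_at, with a standard error of 0.39.

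Mrps5, a counterpart of a bacterial small subunit protein, read 10.19, 10.25, 10.25, 10.30 and 10.32 on the arrays labelled dn-cJun, against 10.08, 9.87, 10.13, 10.06 and 9.85 on the control arrays. The difference was 0.26 (SE 0.08, limma adjusted p = 0.154), while its probe set 1453954_a_at gave -0.25 (SE 0.10) and the dim 1447628_x_at gave -0.60 (SE 0.42). The probe sets of Mrps5 therefore differ in sign. Mrpl17, another protein with a bacterial counterpart, averaged 12.20 ± 0.08 on the arrays labelled dn-cJun and 12.41 ± 0.10 on the control arrays (SD, n = 5 each), a difference of -0.22 (SE 0.07, limma adjusted p = 0.157). Mrps26, found in mitochondria only, averaged 10.56 ± 0.12 on the arrays labelled dn-cJun and 10.30 ± 0.10 on the control arrays (SD, n = 5 each), a difference of 0.25 (SE 0.08, limma adjusted p = 0.172). With the mean of the probe sets of a gene, those below the filter included, Mrps5 turned to -0.11 and Mrps26 to -0.10. For Mrps26 this came from 1441053_at, which was below the filter and gave -0.46 (SE 0.27).

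**Figure D3:**
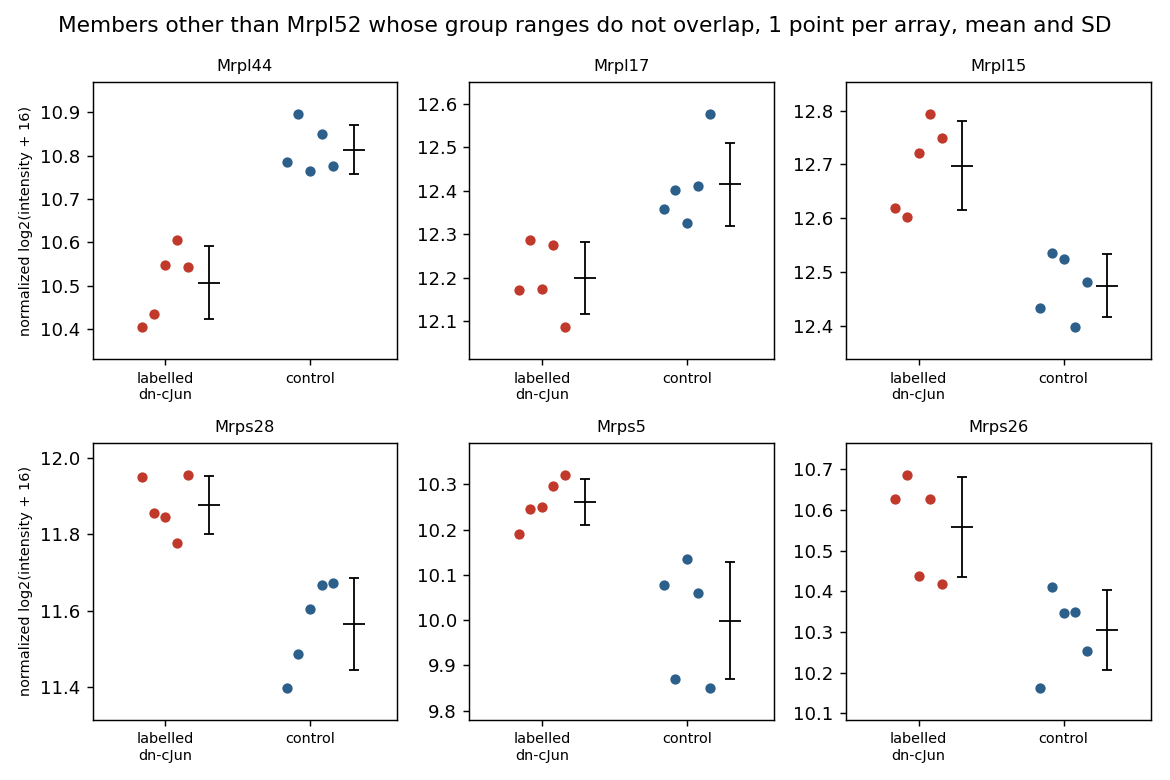
Normalized log2 signal (y axes, each with its own range) of the 6 genes other than Mrpl52 whose groups do not overlap, 1 point per array, arrays labelled dn-cJun left and control right, with mean and SD. Mrpl44 and Mrpl17 are lower on the arrays labelled dn-cJun, by 0.31 and 0.22, and the other 4 are higher, by 0.22 to 0.31.

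The large subunit was then set against the small one. Of its 47 genes 27 had positive and 20 negative differences, with a median of 0.03 (quartiles -0.09 and 0.10), and of the 29 of the small subunit 19 were positive and 10 negative, with a median of 0.04 (quartiles -0.08 and 0.15). The medians differed by -0.01 (large minus small), and by -0.01 too with Mrps18a and Mrps30 counted in the large subunit and Mrps36 left out. Without array dn-cJun 20 the difference of the medians was -0.05, without control 13 it was -0.04 and without control 15 it was 0.02. An unadjusted p under 0.05 was found for 9 genes of the large subunit (19.1%) and 4 of the small one (13.8%).

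Among the large subunit genes with the smallest p, after those above, Mrpl35 was at -0.25 (SE 0.08, limma adjusted p = 0.167), Mrpl38 at 0.23 (SE 0.09), Mrpl37 at 0.26 (SE 0.10) and Mrpl16 at 0.15 (SE 0.06). Mrpl37 and Mrpl38 are found in mitochondria only, and Mrpl16 and Mrpl35 have bacterial counterparts. In the small subunit Mrps25 was at -0.26 (SE 0.10), Mrps24 at 0.17 (SE 0.08), Mrps22 at 0.15 (SE 0.07), Mrps33 at 0.15 (SE 0.08) and Mrps16 at -0.12 (SE 0.07). Mrps16 and Mrps22 are known for human mutations that impair mitochondrial translation. None of these 9 passed, with limma adjusted p-values of 0.167 to 0.474.

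Proteins with a role known beyond the ribosome's structure did not pass either. Mrpl12, part of the stalk that recruits translation factors and reported to bind the mitochondrial RNA polymerase, averaged 12.95 ± 0.05 on the arrays labelled dn-cJun and 12.83 ± 0.07 on the control arrays (SD, n = 5 each), a difference of 0.12 (SE 0.06, limma adjusted p = 0.376). Mrps12, which lies at the decoding centre, was at -0.03 (SE 0.07). Mrpl58, a peptidyl-tRNA hydrolase that frees stalled ribosomes and is built into the large subunit, was at 0.07 (SE 0.07). Mrpl41, reported to bind Bcl2, was at -0.09 (SE 0.07), and Mrps30, known also as a programmed cell death protein, at 0.09 (SE 0.07). Mrpl3, Mrps2 and Mrps34, for each of which human disease mutations are known, were at 0.06 (SE 0.10), 0.08 (SE 0.10) and -0.09 (SE 0.09). The 95% interval ran from -0.13 to 0.29 for Mrps2 and from -0.29 to 0.11 for Mrps34.

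By evolutionary origin, 43 of the 76 genes were sorted as having a bacterial counterpart and 32 as found in mitochondria only. Mrps36 was placed in neither class. The sorting was made after the values had been seen. It puts Mrps18a, Mrps18b and Mrpl58 among the 32, although related bacterial proteins are known for them. Positive differences were found in 25 of the 43 and 21 of the 32, with medians of 0.03 and 0.04. In the large subunit the medians were 0.03 for 27 genes with a counterpart and 0.04 for 20 without, and in the small subunit 0.04 for 16 and 0.06 for 12.

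The 76 genes had 138 probe sets above the filter, and 35 genes had more than 1. In 23 of these 35 the probe sets differed in sign. Of the 62 further probe sets 29 had the sign of the brightest one and 33 the opposite sign. Over the 138 the median absolute difference was 0.10, beside a median standard error of 0.10. The share of differing signs over all genes with more than 1 probe set was not examined. With every probe set as the unit, 1 of the 138 passed, 1460701_a_at of Mrpl52, where 0.744% of all 22847 probe sets passed, 0.451% as lower. The groups did not overlap in 8 of the 138 (5.80%), against 3.74% of all probe sets. An unadjusted p under 0.05 was found for 20 of the 138 (14.5%), where 13.6% of all probe sets had one. Further probe sets with large differences were those of Mrpl48 (1442016_at, at 0.65 with SE 0.37), Mrpl38 (1444217_at, at 0.55 with SE 0.15), Mrpl51 (1416878_at, at -0.42 with SE 0.21) and Mrpl28 (1456313_x_at, at 0.42 with SE 0.21). None of them passed.

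Further genes had probe sets of opposite sign over 0.3 log2 units apart. The brightest one gave 0.05 for Mrpl48, -0.09 for Mrpl51, -0.09 for Mrps14, 0.03 for Mrps10, 0.02 for Mrpl27 and 0.06 for Mrpl3. Mrpl13 was at 0.21 (SE 0.11) and Mrpl28 at 0.17 (SE 0.12). The further probe sets of Mrpl35 gave 0.06 and 0.01, against -0.25 for the brightest.

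**Figure D4:**
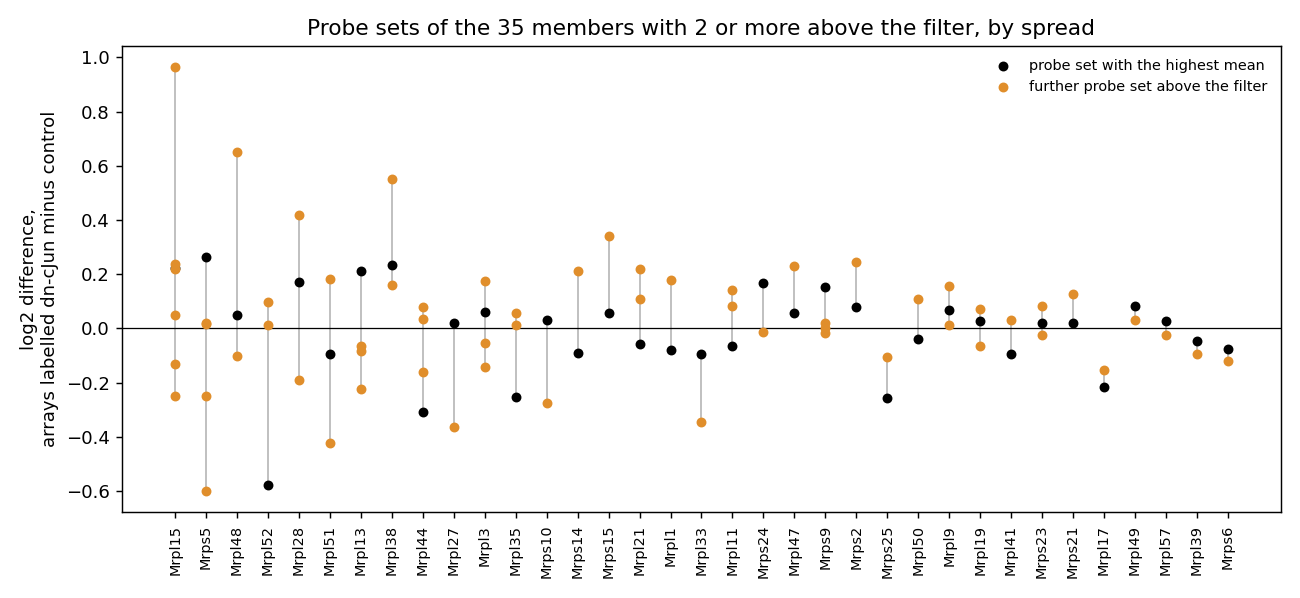
Log2 difference (y axis, arrays labelled dn-cJun minus control) of every probe set above the filter for the 35 genes with more than 1, ordered by spread from left to right. Black points are the brightest probe set of each gene and orange points the further ones, and in 23 of the 35 genes the points lie on both sides of 0.

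Across the arrays, the median of the 76 genes, each centred over the 10 arrays, was -0.03, 0.04, 0.01, 0.05 and 0.004 on the arrays labelled dn-cJun 16 to 20, against -0.01, 0.02, -0.01, -0.0002 and -0.05 on controls 11 to 15. The groups overlapped. The lowest array was control 15 and the highest dn-cJun 19. The large subunit spanned -0.03 to 0.04 on the arrays labelled dn-cJun and -0.04 to 0.04 on the control arrays, and the small subunit -0.004 to 0.08 and -0.06 to 0.02, so both overlapped. Control 11 alone has Trizol in its extraction entry. It had the lowest signal of the 10 arrays for 14 of the 76 genes and the highest for 9. For control 15 these counts were 13 and 2, for control 12 they were 3 and 14, and for dn-cJun 20 both were 12. The counts over all genes were not examined, and the part of the extraction was not tested.

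Related gene lists show what stood around these genes. Of 4 further mitochondrial ribosomal proteins with other symbols, all 4 differences were positive and none passed, with Ptcd3 at 0.22 (SE 0.11). None of 24 assembly factors of the mitochondrial ribosome passed, with 13 positive, 11 negative and a median of 0.03. The smallest p among them was that of Mterf4, which guides an RNA methyltransferase to the ribosome, at -0.29 (SE 0.08, limma adjusted p = 0.111). None of 13 translation factors passed, with 9 positive and a median of 0.05, and Lrpprc, which stabilizes mitochondrial messenger RNAs, was at 0.18 (SE 0.07, limma adjusted p = 0.267). Mitochondrial transcription and DNA genes had no gene past the test (10 tested, median 0.03, smallest p for Mterf2 at 0.38 with SE 0.18). Aminoacyl-tRNA synthetases of mitochondria had none either (17 tested, 8 positive, median -0.0005, smallest p for Gars at -0.22 with SE 0.07). Gars and Kars in this list are not specific to mitochondria, and the next smallest p was that of Aars2, at -0.77 (SE 0.27). Nor did regulators of mitochondrial biogenesis have a gene past the test (10 tested, median -0.01, smallest p for Esrra at 0.25 with SE 0.12).

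Subunits of oxidative phosphorylation, the complexes that mitochondrial ribosomes help to build, had 58 of 79 differences positive, a median of 0.04 and 1 gene past the test. Atp5k, a subunit of the ATP synthase, fell by 0.44 (SE 0.08, limma adjusted p = 0.0236), on a probe set of the type that can bind other transcripts. No gene of this list passed when control 13, control 14, dn-cJun 19 or dn-cJun 20 was left out. The median was 0.12 to 0.15 under the 3 other scalings, with the shift of all genes removed where it was over 0.1 log2 units. Proteins of the cytosolic ribosome had 36 of 44 differences negative and a median of -0.07 after quantile normalization, and 30 to 33 of 44 positive with a median of 0.03 to 0.06 under the 3 other scalings, with the shift of all genes removed where it was over 0.1 log2 units. None passed, and the smallest p was that of Rpsa at -0.21 (SE 0.05, limma adjusted p = 0.0776). The median of the mitochondrial ribosomal protein genes was 0.03 with the factor per array undone. It was 0.03 too as deposited, with the shift of all genes removed. With equal array medians it was -0.002, where the median over all genes was -0.033 and was not removed. The array medians of the cytosolic list were -0.06 to -0.0006 on the arrays labelled dn-cJun and 0.004 to 0.06 on the control arrays. No test of a difference between these lists was made.

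**Figure D5:**
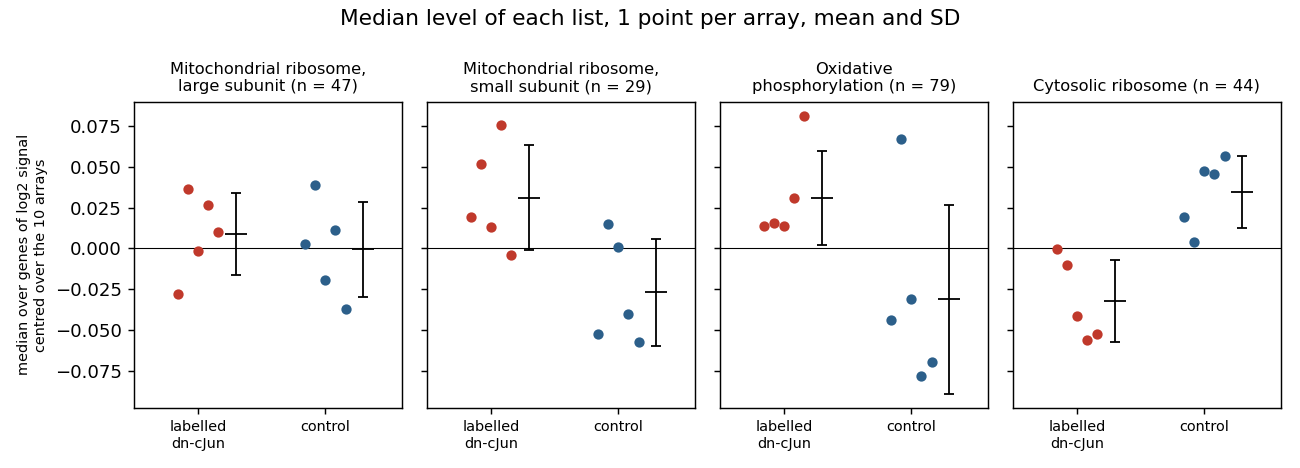
Median over genes of the log2 signal centred over the 10 arrays (y axis), 1 point per array, for the 2 subunits of the mitochondrial ribosome, oxidative phosphorylation and the cytosolic ribosome, arrays labelled dn-cJun left and control right, with mean and SD. The groups overlap in both subunits and in oxidative phosphorylation, and the cytosolic list, which changes its sign with the scaling, does not overlap here.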

How the data were processed

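The authors deposited 1 linear intensity per probe set and array, with 1 mouse per array. What software they used is not stated in these sources. In each deposited column all values are whole multiples of a step (tolerance 0.02 steps), and the steps differ by a factor of 0.887 to 1.22 per array of unstated purpose. Median intensity was 85.3 to 127.5 per array, and the number of arrays limits the precision. Intensities were taken as log2(intensity + 16) and quantile normalized (limma 3.58.1, R 4.3.3), since array medians spanned 0.50. The 64 control probe sets were left out. The probe set with the highest mean stood for a gene, and a floor at percentile 40 of mean signal left 12736 genes. Groups were compared with limma (lmFit, eBayes with intensity trend), two-sided, Benjamini-Hochberg adjusted. The procedure was tested on simulated data. Replicates are separate mice per the labels.

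Genes were named if past the threshold, among the 8 smallest p of a subunit, of known further role, or with probe sets of opposite sign over 0.3 apart. Of each companion list, genes past the threshold were named, else that with the smallest p. Members, lists and rules were chosen with earlier results of these data known. Probe sets shared with another gene (4, including those of Mrpl30 and Mrpl53) were not used here. Alternatives covered scaling, pseudocounts, the filter, the choice of probe sets, eBayes options, array weights and left-out arrays. The subunit by structure was added after seeing the data. Figures were drawn with matplotlib 3.10.9.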

Additional observations from a re-analysis of the deposited data

Results flagged for a closer look

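Mrpl16 on the array dn-cJun 16 read 11.90 in log2 units, far below the other 4 arrays labelled dn-cJun, which lay between 12.10 and 12.12. It was 1 value in 68 sets of 5 arrays examined for a value far from the others, where chance gives about 1 in 20.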

How the results depend on the processing

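No paired analysis was possible because the replicate numbers do not repeat between the groups. The number of genes past the threshold over all genes was 99 and is the least stable value. It was 490 with the values as deposited (22 higher and 468 lower, with a shift of the median gene of -0.19), 65 with equal array medians (20 and 45), 44 with the mean of probe sets, 170 with every probe set as the unit, 9 in eBayes without trend, 52 without controls 14 and 15, 156 with a term for them, and 13 to 199 with 1 array left out. Of the mitochondrial ribosomal protein genes, 5 passed with the values as deposited (Mrpl14, Mrpl17, Mrpl35, Mrpl44 and Mrpl52). The shift of -0.19 was not removed there. With the mean of probe sets or without trend 0 passed. There were 2 each with array weights (Mrpl44 and Mrpl52) and with a term for controls 14 and 15 (Mrps28 and Mrpl52). In the other fits, those with 1 array left out included, the count was 1 and the gene was Mrpl52. Mrpl52 was at -0.20 with the mean of probe sets and at -0.58 without trend, where it did not pass, and at -0.63 to -0.54 with 1 array left out. The median of the genes was -0.0022 with equal array medians, where that over all genes tested was -0.033. The difference between the medians of the subunits was -0.054 to 0.022 with 1 array left out. The mean of probe sets includes those below the filter. With it, Mrps5 was at -0.11, Mrps26 at -0.10, Mrpl13 at -0.040 and Mrpl58 at -0.060. Mrps10 was at -0.12, Mrpl27 at -0.17 and Mrpl41 at 0.024. All of these signs are the opposite of those in the main setting. In Mrps26, Mrpl58 and Mrpl41 the sign turned only with a probe set below the filter. Mrpl15 turned to -0.13 without probe sets ending in _x_at or _s_at, and Mrps10 to -0.0036 with equal array medians. With 1 array left out, Mrpl48 ranged from -0.019 to 0.081, Mrpl27 from -0.0025 to 0.033, Mrps10 from -0.017 to 0.093 and Mrps12 from -0.056 to 0.0053.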
